A study of Mus musculus with 24 samples.

Results

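The 47 genes described here run the mechanical end of the cell cycle: the spindle checkpoint, the kinetochore, chromosome condensation, anaphase and cytokinesis. They were picked by name, as genes of these machines and with earlier results of these data known. Their shares and medians beside those of all genes are therefore descriptions. They were found in the count files through their Ensembl identifiers, 47 of 56923. Of these, 44 passed the filter on low counts used for the tests, which 20368 genes passed in all. Aurkb, Plk1 and Ccna2 did not pass it. All 47 are accounted for below.

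RNA was taken from mouse ventricular nuclei that were sorted for PCM1, which in cardiomyocytes (CMs) coats the nucleus and so serves to sort their nuclei. Control mice were XMLC2(-)Casp2(fl/fl) and carried the floxed Casp2 alleles without the recombinase, and Casp2-depleted mice were XMLC2(+)Casp2(fl/fl), with a Cre driven by the cardiac XMLC2 promoter, so both genotypes shared the floxed alleles and CMs were the cells meant to lose the gene. Mice were taken at postnatal day 1 (P1), P7 and P14, with 4 libraries for each genotype and day, and each library was a pool of 15 hearts at P1, 6 hearts at P7 and 2 hearts at P14. For low quality the study dropped replicate 1 of the P1 controls, replicate 3 of the P14 controls and replicate 1 of the Casp2-depleted mice at P14, which leaves 21 libraries in 6 groups of 3 or 4. The replicates are separate pools, and p-values are set against the spread between pools, which the main test largely shares across genes.

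In mitosis the kinetochore, a protein layer built on the centromere, holds each chromosome to the spindle, and the spindle checkpoint blocks the anaphase-promoting complex until every kinetochore is attached. The chromosomal passenger complex corrects faulty attachments and later directs cytokinesis, in which a ring of anillin and actomyosin pinches the cell apart. Mouse CMs divide before birth and around it, and in the days after birth many of them copy their DNA and part their nuclei without completing cytokinesis, which leaves binucleated and polyploid cells. Caspase-2, the protease of the PIDDosome, is known to respond to extra centrosomes after failed cytokinesis. The study asked how its loss changes CM ploidy and the transcripts of CM nuclei.

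Many genes that peak in G2 and mitosis share promoter elements: the cell cycle genes homology region (CHR), bound by the MuvB complexes, and the CCAAT box, bound by NF-Y. The RefSeq promoter windows, 250 bases before to 50 bases after a start in build GRCm38.p6, held 41 of the 47 genes by symbol. Those not matched were Aurkb, Ccna2, Incenp, Smc4, Spc24 and Tpx2. Windows are printed below for the 3 matched genes that were called in a comparison between days (Mki67, Ncapd2 and Top2a) and for Plk1, Ect2 and Mad2l1, because they show how closely the elements lie together and that a gene of this machinery can lack them. Capitals mark TTTGAA (CHR), TTCGAA (a CHR variant, a palindrome) and CCAAT on either strand, so that TTCAAA and ATTGG are the same letters read from the other strand. The windows lie on the minus strand at chr7:135716330-135716629 for Mki67, chr6:125191537-125191836 for Ncapd2, chr11:99024140-99024439 for Top2a and chr3:27153829-27154128 for Ect2, and on the plus strand at chr7:122159185-122159484 for Plk1 and chr6:66534971-66535270 for Mad2l1. Ect2 has a further window that largely overlaps the printed one.
Mki67: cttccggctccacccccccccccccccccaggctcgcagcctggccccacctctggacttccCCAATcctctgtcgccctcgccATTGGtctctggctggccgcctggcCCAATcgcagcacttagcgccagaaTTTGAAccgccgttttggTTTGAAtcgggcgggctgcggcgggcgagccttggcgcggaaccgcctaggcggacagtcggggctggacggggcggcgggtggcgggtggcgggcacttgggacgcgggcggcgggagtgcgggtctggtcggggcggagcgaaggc
Ncapd2: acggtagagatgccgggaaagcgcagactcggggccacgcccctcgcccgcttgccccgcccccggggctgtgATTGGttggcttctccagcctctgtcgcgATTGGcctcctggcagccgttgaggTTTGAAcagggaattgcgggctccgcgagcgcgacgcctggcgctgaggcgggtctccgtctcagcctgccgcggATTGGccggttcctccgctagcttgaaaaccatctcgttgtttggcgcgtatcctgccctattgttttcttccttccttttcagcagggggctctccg
Top2a: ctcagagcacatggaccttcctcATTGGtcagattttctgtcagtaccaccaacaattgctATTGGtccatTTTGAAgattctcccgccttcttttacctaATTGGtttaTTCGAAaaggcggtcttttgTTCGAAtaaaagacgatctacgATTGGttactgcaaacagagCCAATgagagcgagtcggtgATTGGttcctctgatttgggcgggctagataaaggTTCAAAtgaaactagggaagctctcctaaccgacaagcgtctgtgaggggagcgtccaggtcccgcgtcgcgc
Plk1: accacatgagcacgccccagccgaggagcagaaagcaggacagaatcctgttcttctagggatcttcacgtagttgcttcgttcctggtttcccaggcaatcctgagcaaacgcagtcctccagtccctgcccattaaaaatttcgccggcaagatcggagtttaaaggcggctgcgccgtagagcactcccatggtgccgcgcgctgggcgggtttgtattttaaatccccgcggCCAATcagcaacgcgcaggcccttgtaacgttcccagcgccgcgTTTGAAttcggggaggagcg
Ect2: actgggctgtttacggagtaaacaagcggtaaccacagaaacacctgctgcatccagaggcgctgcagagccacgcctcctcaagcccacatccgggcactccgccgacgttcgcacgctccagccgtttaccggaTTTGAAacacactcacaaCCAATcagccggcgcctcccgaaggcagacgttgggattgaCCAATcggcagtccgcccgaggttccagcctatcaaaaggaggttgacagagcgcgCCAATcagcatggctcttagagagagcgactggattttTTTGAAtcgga
Mad2l1: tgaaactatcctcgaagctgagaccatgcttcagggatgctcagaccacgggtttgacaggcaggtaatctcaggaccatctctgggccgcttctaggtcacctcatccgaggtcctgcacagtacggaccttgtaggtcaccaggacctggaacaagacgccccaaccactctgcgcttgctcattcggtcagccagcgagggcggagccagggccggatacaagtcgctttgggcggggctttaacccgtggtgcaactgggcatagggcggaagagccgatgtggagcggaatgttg

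The Top2a window held 6 CCAAT boxes, 2 CHRs and 2 copies of the variant. The Mki67 window held 3 CCAAT boxes and 2 CHRs, the Ncapd2 window 3 CCAAT boxes and 1 CHR, the Ect2 window 3 CCAAT boxes and 2 CHRs, and the Plk1 window 1 of each. The Mad2l1 window held none of these letters. Over the 41 matched genes, 27 (65.9%) had a CHR or its variant in a window, against 21.7% of the 27025 genes in the table, and 28 (68.3%) had a CCAAT box, against 41.1%. Both stood together in 23 of 41 (56.1%), against 8.61% of all genes. The E2F core letters TTCGCGC or TTGGCGC, which can share the letters TTGG with a CCAAT box on the other strand, were found in 7 of 41 (17.1%), against 4.47%. By role, both elements were present in 4 of 6 checkpoint genes (Bub1, Bub1b, Bub3 and Ttk), in 5 of the 7 matched genes of the condensin group and in 3 of 9 matched kinetochore genes. A match is a description of the letters and not of a bound site.

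**Figure D1:**
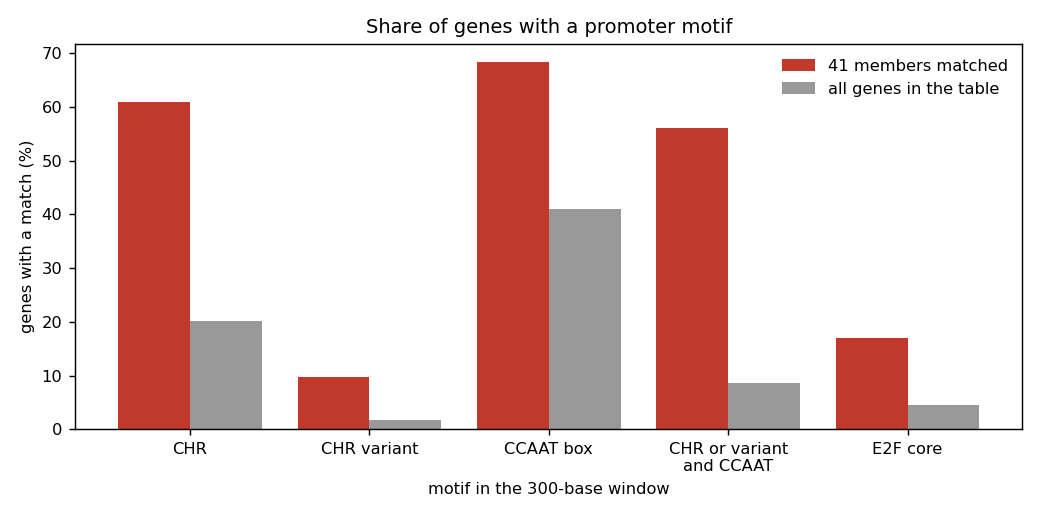
Share of genes (%, y axis, from 0) with at least 1 match to each motif in a 300-base RefSeq promoter window, for the 41 matched genes (red) and for all 27025 genes of the table (grey). The pair of CHR or variant and CCAAT is found in 56.1% of the matched genes and in 8.61% of all genes.

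The libraries held 891817 to 2924097 reads on genes, so that 3 reads, the limit that a count of 0 allows, equal 1.03 to 3.36 counts per 1e+06 reads (CPM) before scaling. Levels are given as CPM with TMM factors, per library in the order of the replicate numbers. A fold given as at least a value rests on this limit of 3 reads, which covers counting error and not the spread between pools. The P14 libraries held 891817 to 1278961 reads on genes. Of the reads on genes, on no gene or ambiguous, 63.7 to 76.1% lay on no gene at P14, against 34.3 to 64.3% at P7 and 36.8 to 73.9% at P1. The 7 CM markers were all read in each group. At P7 they summed to 55902 to 82921 CPM in controls (median 71178) and 45401 to 64458 CPM in Casp2-depleted libraries (median 56126). At P14 the sums were 12960.5 to 46500.2 CPM (median 28027) and 16020.5 to 28164.2 CPM (median 18781) in the same genotypes. Fibroblast markers summed to 47.1 to 141 CPM at P7 and 16.4 to 195 CPM at P14, endothelial markers to 122 to 369 CPM and 51.6 to 1115 CPM, and macrophage markers to 42.0 to 233 CPM and 44.9 to 303 CPM, with Ptprc and C1qa at 0 in every P14 library and Cdh5 and Kdr at 0 in the P14 Casp2-depleted libraries. The 5 mural markers summed to 49.3 to 453 CPM over the 21 libraries, while erythroid, epicardial and Schwann cell markers reached at most 109.6, 123 and 124 CPM. The part of these markers in the results below was not tested. Casp2 itself was read 9 times in the P7 controls, 8 times in the P7 Casp2-depleted libraries and in no other library kept, so at this depth its level checks no label, and a 3′ tag may lie outside the deleted part. In bulk nuclei, fewer cells of a cycling type and less RNA per cell cannot be told apart.

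Fewer of the 47 genes were read at P14 than at P7. A read was found for 22 to 35 of them in the P1 libraries, for 32 to 44 at P7 and for 9 to 27 at P14, with medians of 30, 37.5 and 22.5. The ranges of P7 and P14 did not overlap, and after thinning every library to 891817 reads they were 30 to 43 and 9 to 27. Over all identifiers, 24.6 to 31.2% had a read in the P7 libraries and 13.4 to 23.98% in the P14 libraries. Taken over the libraries of a day, 45 of the 47 were read at P1, 46 at P7 and 35 at P14. The 11 read at P7 and in no P14 library kept were Mad2l1, Aurkb, Cenpa, Nuf2, Spc24, Plk1, Ccnb1, Cdc20, Sgo1, Sgo2a and Mki67. The share of all genes lost in this way was not counted, and P14 had 6 libraries where P7 had 8. Such a loss is therefore not shown to be particular to these genes. The 6 genes Mad1l1, Cenpf, Cenpp, Cdc27, Anln and Prc1 were the ones read in all 21 libraries, 16 were read in 10 libraries or fewer, and Ccna2 (cyclin A2) had no read in any.

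The 47 genes together took 0.131 to 0.159% of the reads on genes in the P1 controls and 0.103 to 0.165% in the P1 Casp2-depleted libraries. At P7 the share was 0.149, 0.127, 0.148 and 0.138% in the controls and 0.195, 0.199, 0.172 and 0.201% in the Casp2-depleted libraries. All 4 Casp2-depleted libraries of P7 lay above all 4 controls, and the same held without Incenp's reads only in part, since the highest control then lay at 0.145% and the lowest Casp2-depleted library at 0.144%. At P14 the controls took 0.0893, 0.167 and 0.184% and the Casp2-depleted libraries 0.145, 0.161 and 0.179%, so the groups overlapped. The share at P14 came from fewer genes than at P7: in P14 control replicate 4, 9 genes held it, and Cenpp alone gave 35.5% of their reads. Values of 0 beside a replicate with 20 reads or more were common. They made up 39.6% of such values in the P14 controls, 26.8% in the P14 Casp2-depleted libraries and 8.27% in the P7 controls.

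**Figure D2:**
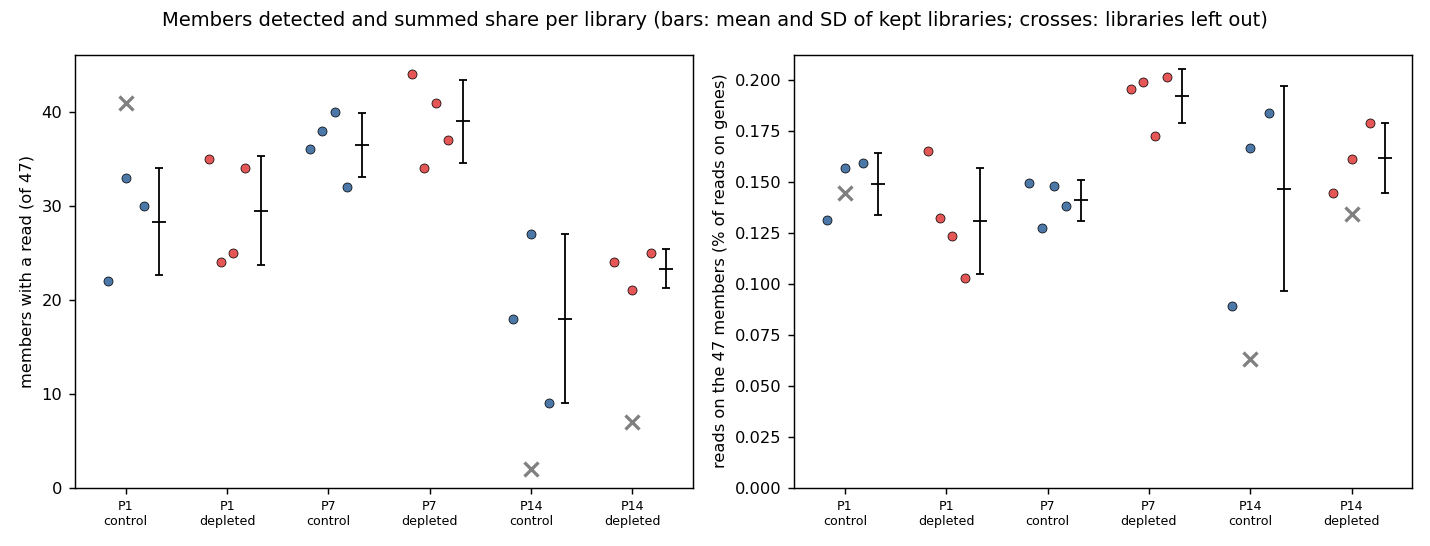
Number of the 47 genes with a read (left) and their summed share of the reads on genes in % (right), for each library by group; points are libraries, bars the mean and SD of the libraries kept, crosses the 3 libraries the study left out. Detection is 32 to 44 genes at P7 and 9 to 27 at P14, and the 4 Casp2-depleted libraries of P7 hold shares of 0.172 to 0.201% against 0.127 to 0.149% in the controls.

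Reads were counted over the whole gene, introns included, and the level in CPM rose with the length of the gene across the 46 genes with a read (Spearman's rho 0.61, across genes, which share libraries and are not independent), as did the number of libraries with a read (rho 0.64). Per kb of gene span this relation was gone (rho 0.06). On that scale Incenp led with 6.62 CPM per kb, averaged over the 21 libraries, followed by Smc4 (3.68), Prc1 (2.91), Cdc27 (2.10), Bub3 (1.84) and Birc5 (1.62). In CPM alone Cenpp and Mad1l1 were among the 4 highest, but they span 189 and 313 kb and came to 0.754 and 0.325 CPM per kb. Whether the counting used the strand is not stated. Bub3 lies whole within Fgfr2 on the opposite strand, Prc1 within Rccd1, Spc25 overlaps Nostrin, Sgo2a overlaps Kctd18, Cdk1 overlaps Ank3, and Cenpp holds Ecm2, Aspn, Omd and Ogn on the opposite strand, so reads of these pairs may not be told apart. The 5 genes called in any comparison overlap only genes without a read, except Ncapd2, which meets Mrpl51 (102 reads) at its end. Reads shared with an overlapping gene may have been set aside as ambiguous, so a count of 0 does not show that gene to be silent.

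**Figure D3:**
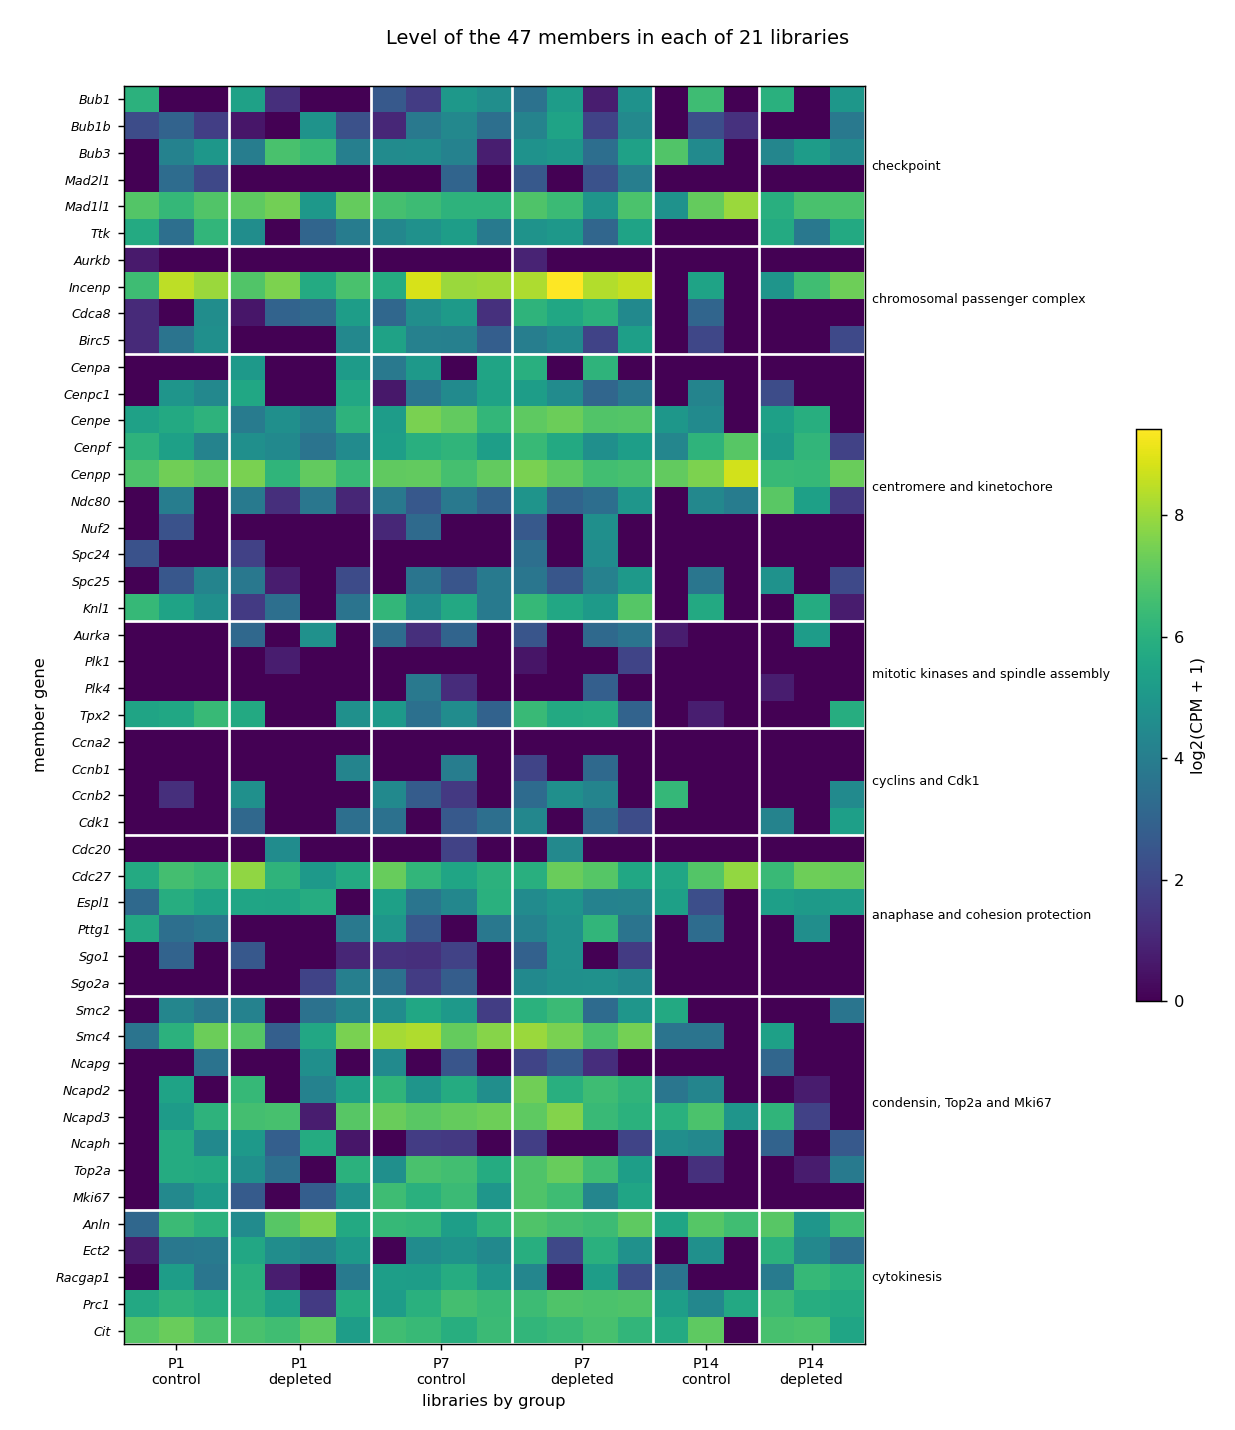
Level of each of the 47 genes, as log2(CPM + 1), in each of the 21 libraries (columns, by group), with the genes ordered by role (right). Mki67, Top2a, Smc4 and Ncapd2 are bright at P7 and dark at P14, while Mad1l1, Cenpp, Cdc27, Anln and Prc1 are read throughout; Ccna2 is at 0 in every library.

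Between P7 and P14, the genes called lower were those of chromosome condensation and Incenp, in one genotype or both. In controls, 4 of the 44 genes tested were called lower at P14 than at P7 (in edgeR's quasi-likelihood test, with an adjusted p below 0.05 and a change of more than 1 on the log2 scale): Incenp, Smc4, Mki67 and Top2a. None was called higher. Over all genes tested 1.88% were called, and 1.87% were called lower. In Casp2-depleted CMs 3 were called, all lower (Smc4, Ncapd2 and Mki67), where 2.83% of all genes were. The median log2 fold change of the 44 was -2.36 in controls and -1.96 in Casp2-depleted CMs, against -0.75 and -0.61 over all genes. With genes at 0 at P14 set to the bound that 3 reads in the group allow, the control median was -1.62 and that of Casp2-depleted CMs stayed at -1.96. From P1 to P14 the fitted medians were -0.86 in controls and -0.23 in Casp2-depleted CMs, against -0.28 and -0.41 over all genes. The median of the 44 thus lay below that of all genes in controls and above it in Casp2-depleted CMs. When the fraction of a library's reads outside genes was added to the fit, a choice made after seeing the data, no gene of the 47 was called in any comparison, and P14 and a high share of such reads cannot be told apart. In 11 of the 44 genes all P14 controls lay below all P7 controls, where 13.5% of all genes showed this. In Casp2-depleted CMs 10 were lower without overlap (10.9% of all genes) and Espl1 was higher (2.26%).

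**Figure D4:**
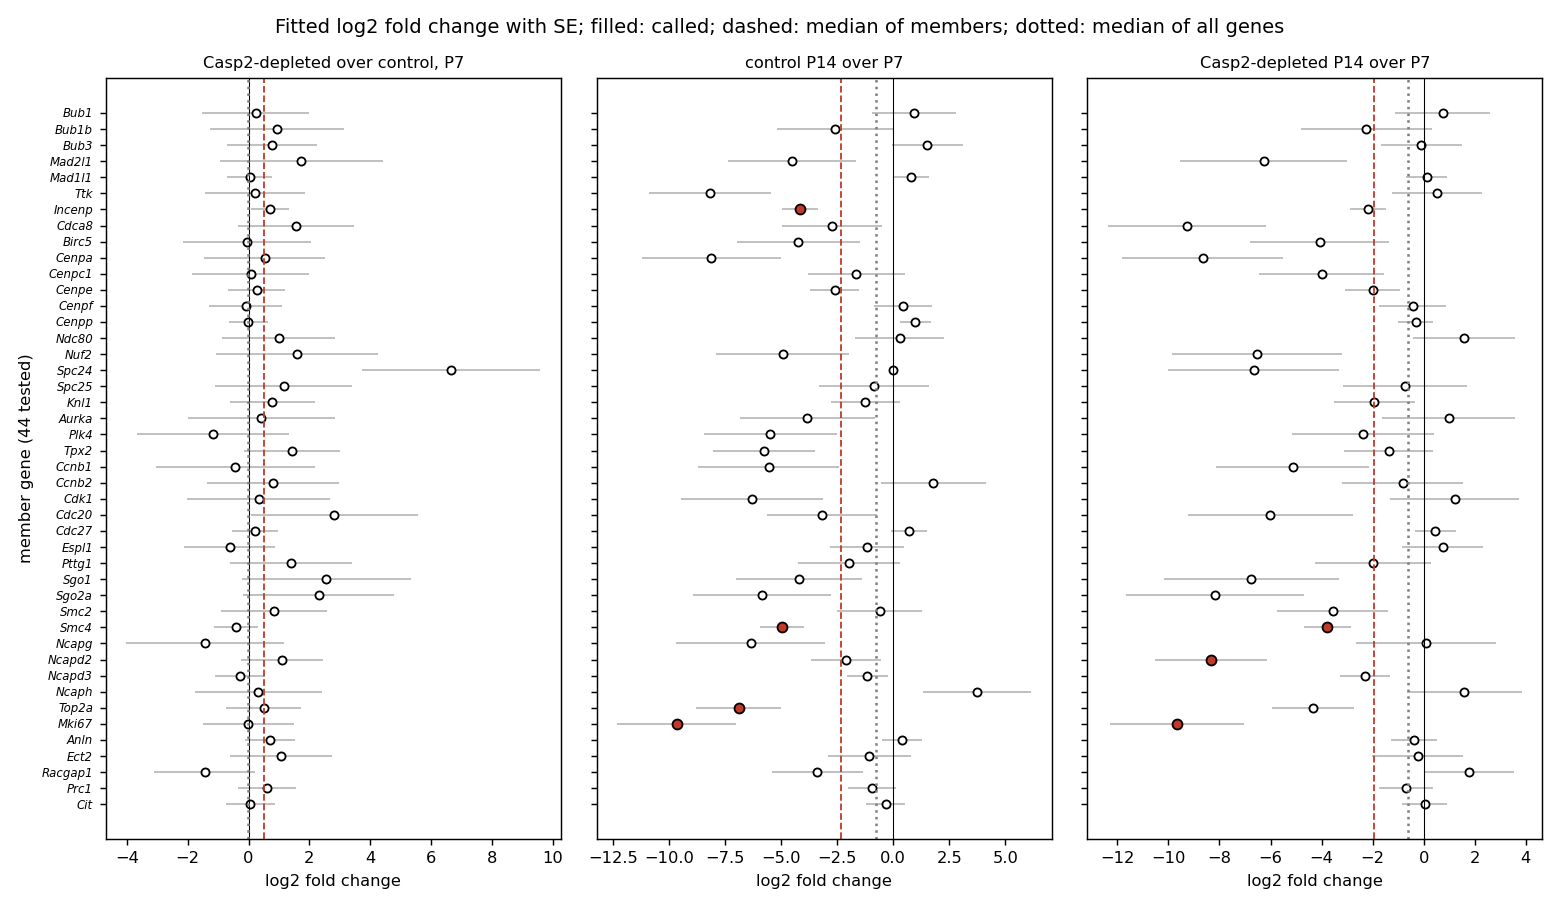
Fitted log2 fold change (x axis) with its SE for the 44 genes tested (y axis, by role), for Casp2-depleted over control at P7 and for P14 over P7 in each genotype; filled points were called, the dashed line is the median of the 44 and the dotted line that of all genes. Genes at 0 in a group have fitted values that depend on the prior count. At P7 no gene was called and 33 of 44 points lie above 0, and from P7 to P14 4 genes were called in controls and 3 in Casp2-depleted CMs, all lower.

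The condensin complexes, topoisomerase II alpha and Ki-67 shape mitotic chromosomes. Together these 8 genes took 0.0344 to 0.0618% of the reads in the 8 libraries of P7 and 0.000553 to 0.0205% in the 6 of P14, and the ranges did not overlap. Smc4 stood at 11.4, 64.6 and 158 CPM in the P1 controls and 119.8, 6.29, 48.6 and 182 CPM in the P1 Casp2-depleted libraries, at 283, 314, 144 and 209 CPM and 252, 183, 107 and 173 CPM in the same genotypes at P7, and at 11.3, 11.2 and 0 CPM and 39.4, 0 and 0 CPM at P14. Every P7 library of Smc4, the ATPase shared by condensin I and II (chr3:68911944-68941960 on GRCm39, plus strand), lay above every P14 library. The change from P7 to P14 was -4.97 ± 0.99 on the log2 scale in controls (SE, edgeR adjusted p = 0.000201) and -3.77 ± 0.93 in Casp2-depleted CMs (adjusted p = 0.00398). From P1 to P14 in controls the change of -3.36 ± 0.94 missed the threshold (adjusted p = 0.0895), and it was called with the replicate number as a block (adjusted p = 0.0326). The left-out library P14 Casp2-depleted replicate 1, with reads on only 4285 of all genes, held 251 Smc4 reads, 174 CPM without scaling. With all 24 libraries the changes from P7 were -5.31 (adjusted p = 0.0742) and -2.14 (adjusted p = 0.322). With edgeR's own stricter filter they were -4.87 (adjusted p = 0.170) and -3.65 (adjusted p = 0.248), also not called.

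Mki67 was at 0, 20.4 and 34.8 CPM in the P1 controls and 5.51, 0, 6.08 and 25.9 CPM in the P1 Casp2-depleted libraries, at 88.6, 61.8, 85.5 and 29.9 CPM and 111, 88.5, 19.2 and 45.6 CPM in the same genotypes at P7, and at 0 CPM and 0 CPM at P14. Mki67, the proliferation marker Ki-67 (chr7:135291513-135318299, minus strand), was thus read in each P7 library and in no P14 library, that is, 427 and 444 reads against 0 in controls and Casp2-depleted CMs. With 3 reads in the P14 group as the limit, it was at least 93.9-fold lower at P14 in controls (edgeR adjusted p = 0.0198) and at least 107-fold lower in Casp2-depleted CMs (adjusted p = 0.0119). Top2a was measured at 0, 54.1 and 52.3 CPM in the P1 controls and 25.1, 9.79, 0 and 63.3 CPM in the P1 Casp2-depleted libraries, at 24.5, 104, 92.6 and 54.6 CPM and 111, 150.2, 91.2 and 37.8 CPM in the same genotypes at P7, and at 0, 1.495 and 0 CPM and 0, 0.628 and 13.7 CPM at P14. All P7 controls lay above all P14 controls for Top2a, the enzyme that untangles sister chromatids (chr11:98883769-98915062, minus strand). The P14 controls held 2 reads and the P7 controls 407, a ratio of 134 (95% counting interval 36.9 to 1112). The edgeR adjusted p was 0.0205. In Casp2-depleted CMs the change of -4.33 ± 1.61 was not called by edgeR (adjusted p = 0.149) or DESeq2 (adjusted p = 0.0756), and limma-voom called it (-5.75, adjusted p = 0.0416). Mki67 and Top2a each kept the call in controls in 15 of the 21 fits that left out 1 library.

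Ncapd2 came to 0, 42.8 and 0 CPM in the P1 controls and 78.2, 0, 16.9 and 41.3 CPM in the P1 Casp2-depleted libraries, at 70.4, 29.4, 54.8 and 23.9 CPM and 164, 60.1, 88.5 and 70.1 CPM in the same genotypes at P7, and at 11.98, 18.7 and 0 CPM and 0, 0.628 and 0 CPM at P14. Ncapd2, a condensin I subunit (chr6:125144962-125169080, minus strand), was read in every P7 library. At P14 it was down to 1 read over 3 libraries in Casp2-depleted CMs, while 2 of 3 controls still held it. The P7 to P14 ratio of reads in Casp2-depleted CMs was 474 (95% counting interval 84.8 to 18754). The edgeR adjusted p was 0.008303. It was also called lower at P14 than at P1 in Casp2-depleted CMs (-6.85 ± 2.07, adjusted p = 0.0485), the only one of the 44 there, a share near the 1.94% of all genes called. That call was lost with the replicate block (adjusted p = 0.0974) and stood in 6 of the 21 fits that left out 1 library. Ncapd3 lay at 0, 35.1 and 67.3 CPM in the P1 controls and 95.2, 101, 0.675 and 126 CPM in the P1 Casp2-depleted libraries, at 153, 126, 147 and 161 CPM and 134, 202, 81.6 and 63.8 CPM in the same genotypes at P7, and at 62.7, 106 and 28.8 CPM and 70.99, 2.51 and 0 CPM at P14. Ncapd3, of condensin II, was above every P1 control in all P7 controls (2.11 ± 0.95, edgeR adjusted p = 0.626), and this difference was not called. The other members, Smc2, Ncapg and Ncaph, passed no threshold in any comparison, and Ncaph had a positive fitted change from P7 to P14 in both genotypes.

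Incenp is the scaffold of the chromosomal passenger complex, which carries the kinase Aurora B to centromeres and midzone (chr19:9846569-9876924, minus strand). Incenp was found at 88.2, 351 and 254 CPM in the P1 controls and 115, 186, 52.7 and 105 CPM in the P1 Casp2-depleted libraries, at 56.3, 460.3, 256 and 269.8 CPM and 305, 682, 323 and 388 CPM in the same genotypes at P7, and at 0, 43.4 and 0 CPM and 28.8, 91.8 and 162 CPM at P14. It was the most abundant of the 47 by both scales, and the P14 controls held it in 1 of 3 libraries. In controls it fell by 4.17 ± 0.80 on the log2 scale from P7 to P14 (edgeR adjusted p = 0.000129) and by 3.99 ± 0.81 from P1 to P14 (adjusted p = 0.00134), where 0.319% of all genes were called. In Casp2-depleted CMs the P7 and P14 libraries did not overlap either, but the change of -2.17 ± 0.71 missed the threshold (adjusted p = 0.0754). These values rest on which libraries are kept. The left-out P14 control replicate 3 held 665 Incenp reads, 625.5 CPM without scaling, out of 672 on all 47 genes, and P14 Casp2-depleted replicate 1 held 798, or 554 CPM. Of all genes, the former had reads on 2049 and the latter on 4285, against 7628 to 13651 in the P14 libraries kept. With all 24 libraries the change from P7 to P14 in controls was -0.58 (adjusted p = 0.890), and with edgeR's own stricter filter it was -4.02 and no longer called (adjusted p = 0.1755).

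At P14 the mean Incenp level was 94.2 ± 66.6 CPM in Casp2-depleted CMs and 14.5 ± 25.04 CPM in controls (SD, n = 3 each), a difference of 2.70 ± 0.76 on the log2 scale that was not called (edgeR adjusted p = 0.137) and had the smallest p of the 44. The groups overlapped through P14 control replicate 2. Without that library the fitted difference was 10.40 with an adjusted p of 5.13e-09, the other controls being at 0, and without P14 Casp2-depleted replicate 2 it was 3.13 (adjusted p = 0.0235). With all 24 libraries it was 0.02. Cdca8 (borealin) and Birc5 (survivin), which dock the complex on chromatin, were read in all 8 P7 libraries and fitted lower at P14 in both genotypes without a call by edgeR. In Casp2-depleted CMs Cdca8 went from 331 reads at P7 to 0 at P14, at least 79.6-fold lower (edgeR adjusted p = 0.0765), and both DESeq2 (adjusted p = 0.0017) and limma-voom (adjusted p = 9.89e-05) called it. Aurkb, the kinase itself, had 3 reads in 2 of 21 libraries. The 4 genes together took 0.00893 to 0.0288% of reads in the P7 controls and 0.0286 to 0.0529% in the P7 Casp2-depleted libraries.

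Among the checkpoint genes, Mad1l1, the kinetochore anchor of Mad2, was read in all libraries. Mad1l1 stood at 119, 76.5 and 115 CPM in the P1 controls and 135, 169, 31.1 and 146 CPM in the P1 Casp2-depleted libraries, at 99.5, 87.6, 67.9 and 66.5 CPM and 112, 83.8, 28.8 and 106 CPM in the same genotypes at P7, and at 26.8, 144 and 252 CPM and 61.2, 104 and 103 CPM at P14. No group of it stood clear of the others, and its highest value was in a P14 control. Mad2l1, the Mad2 protein that forms the inhibitory complex with Cdc20, was sparse. Mad2l1 was at 0, 9.13 and 3.17 CPM in the P1 controls and 0 CPM in the P1 Casp2-depleted libraries, at 0, 0, 7.18 and 0 CPM and 5.12, 0, 4.11 and 15.4 CPM in the same genotypes at P7, and at 0 CPM and 0 CPM at P14. It was read in 6 of 21 libraries with 67 reads in all, with none in the P1 Casp2-depleted libraries against 17 in the P1 controls, a ratio of at least 9-fold by the limit of 3 reads (edgeR adjusted p = 0.644). At P7 the fitted difference was 1.74 ± 2.67 and the groups overlapped. Ttk reached 52.8, 9.83 and 72.1 CPM in the P1 controls and 23.6, 0, 7.43 and 14.4 CPM in the P1 Casp2-depleted libraries, at 19.3, 25.9, 36.5 and 13.5 CPM and 27.9, 31.6, 7.54 and 42.7 CPM in the same genotypes at P7, and at 0 CPM and 52.7, 12.6 and 52.3 CPM at P14. Ttk, the kinase Mps1 that starts checkpoint signalling, was read in each P7 library, in each P14 Casp2-depleted library and in no P14 control. With 175 reads against 0, it was at least 52.3-fold higher in Casp2-depleted CMs at P14 by counting alone. The edgeR test, which takes in the spread between pools, did not call it (adjusted p = 0.2397). DESeq2 and limma-voom did call it, and the P14 controls had reads on 7628 to 13651 genes, against 9428 to 12327 in the P14 Casp2-depleted libraries. Bub1, Bub1b and Bub3 overlapped between genotypes at each day.

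At the centromere and kinetochore, 10 genes gave no call in any comparison. Cenpp, of the inner kinetochore, was second in CPM. Cenpp stood at 110.4, 163 and 136 CPM in the P1 controls and 184, 71.3, 139.7 and 79.7 CPM in the P1 Casp2-depleted libraries, at 137, 141, 97.9 and 139.8 CPM and 183, 134, 94.6 and 102 CPM in the same genotypes at P7, and at 141, 186 and 439.7 CPM and 80.1, 78.6 and 152 CPM at P14. From P7 to P14 in controls its fitted change was 0.99 ± 0.68 (edgeR adjusted p = 0.4304), and its highest value was again in P14 control replicate 4. Cenpe was read at 41.4, 51.95 and 67.3 CPM in the P1 controls and 14.03, 24.5, 15.5 and 67.8 CPM in the P1 Casp2-depleted libraries, at 35.4, 183, 142 and 74.7 CPM and 136, 155, 115 and 117 CPM in the same genotypes at P7, and at 31, 21.7 and 0 CPM and 39.4, 59.1 and 0 CPM at P14. Cenpe, the kinesin that captures microtubules, was lower at P14 than at P7 in its fitted values (-2.62 ± 1.11 in controls, edgeR adjusted p = 0.263). Cenpa was at 0 CPM in the P1 controls and 32.1, 0, 0 and 35.4 CPM in the P1 Casp2-depleted libraries, at 13.03, 33.03, 0 and 44.1 CPM and 61, 0, 69.3 and 0 CPM in the same genotypes at P7, and at 0 CPM and 0 CPM at P14. Cenpa, the histone H3 variant that marks centromeres, was thus at 0 in the P1 controls and P14 libraries kept and was read in 7 of 21 libraries. The left-out P1 control replicate 1 held 179 Cenpa reads, 54.1 CPM without scaling. In the controls kept, Cenpa went from 0 reads at P1 to 130 at P7, at least 30.5-fold by counting alone (edgeR adjusted p = 0.626). At P1 it was at least 28.3-fold higher in the Casp2-depleted libraries by the same limit, through 2 of 4 of them (adjusted p = 0.644).

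Knl1 stood at 77.4, 43.5 and 24.6 CPM in the P1 controls and 2.005, 9.79, 0 and 11.5 CPM in the P1 Casp2-depleted libraries, at 75.04, 24.4, 50.9 and 13.5 CPM and 79.2, 49, 34.3 and 119.8 CPM in the same genotypes at P7, and at 0, 51.6 and 0 CPM and 0, 54.7 and 0.653 CPM at P14. Knl1, the scaffold on which Bub1 docks, was higher in every P7 Casp2-depleted library than in every P1 one (3.58 ± 1.53, edgeR adjusted p = 0.672) and lower in every P1 Casp2-depleted library than in every P1 control. Spc24 and Nuf2, subunits of the Ndc80 complex that grips the microtubule, were read in 4 and 5 of 21 libraries. Spc24 was at 4.201, 0 and 0 CPM in the P1 controls and 2.51, 0, 0 and 0 CPM in the P1 Casp2-depleted libraries, at 0 CPM and 9.78, 0, 22.6 and 0 CPM in the same genotypes at P7, and at 0 CPM and 0 CPM at P14. Its 54 reads lay in 2 of 4 P7 Casp2-depleted libraries, against 0 in the P7 controls, at least 17.7-fold by counting alone. They gave the smallest p of the 44 for genotype at P7 (edgeR adjusted p = 1). Nuf2 came to 0, 4.21 and 0 CPM in the P1 controls and 0 CPM in the P1 Casp2-depleted libraries, at 1.04, 8.62, 0 and 0 CPM and 5.12, 0, 24.7 and 0 CPM in the same genotypes at P7, and at 0 CPM and 0 CPM at P14. It was at least 17.2-fold higher at P7 than at P1 in Casp2-depleted CMs by the same limit, through 2 libraries. Ndc80 itself and Cenpf were read in 18 and 21 libraries and overlapped between P7 and P14.

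Of the mitotic kinases, Plk1, which drives entry into mitosis and centrosome maturation, was almost unread. Plk1 lay at 0 CPM in the P1 controls and 0, 0.699, 0 and 0 CPM in the P1 Casp2-depleted libraries, at 0 CPM and 0.466, 0, 0 and 2.803 CPM in the same genotypes at P7, and at 0 CPM and 0 CPM at P14. That is 6 reads in 3 of 21 libraries, below the limit of 3 reads in each library or near it, and no difference was detectable at this depth. Aurka was at 0 CPM in the P1 controls and 8.02, 0, 26.3 and 0 CPM in the P1 Casp2-depleted libraries, at 9.38, 1.44, 7.18 and 0 CPM and 4.66, 0, 8.23 and 11.2 CPM in the same genotypes at P7, and at 0.705, 0 and 0 CPM and 0, 35.8 and 0 CPM at P14. Aurka, the spindle pole kinase, had 0 reads in the P1 controls and 55 in the P1 Casp2-depleted libraries, from 2 of 4 (edgeR adjusted p = 0.644). Its activator Tpx2 was lower in all P7 controls than in all P1 controls, and it was read in all 8 libraries of P7 and in 2 of 6 at P14, 1 read in controls and 87 in Casp2-depleted CMs, all 87 in replicate 4. Plk4, the kinase of centriole duplication, had 30 reads in 4 libraries. The cyclins were sparse too: Ccnb1 was read in 4 libraries and Ccnb2 in 10. Cdk1 stood at 0 CPM in the P1 controls and 8.02, 0, 0 and 9.96 CPM in the P1 Casp2-depleted libraries, at 10.4, 0, 5.22 and 9.72 CPM and 19.6, 0, 8.92 and 3.504 CPM in the same genotypes at P7, and at 0 CPM and 17.6, 0 and 38.5 CPM at P14. Cdk1, the kinase they activate, was read in 0 of 3 P14 controls and 2 of 3 P14 Casp2-depleted libraries. Averaged over the days it had the smallest p for genotype (4.67 ± 1.65, edgeR adjusted p = 0.3298), a fitted value that depends on groups at 0, and Ank3, which overlaps it on the other strand, held 53605 reads against its 221.

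Cdc27, a core subunit of the anaphase-promoting complex, was read in all 21 libraries. Cdc27 was at 52.8, 96.9 and 81.6 CPM in the P1 controls and 229, 68.5, 33.1 and 53.3 CPM in the P1 Casp2-depleted libraries, at 147, 71.8, 45.7 and 65.8 CPM and 60.1, 153, 121 and 48.4 CPM in the same genotypes at P7, and at 46.5, 117 and 236 CPM and 82.9, 162 and 149.6 CPM at P14. Its groups overlapped throughout, and Myl4 overlaps its end on the other strand. Cdc20, the coactivator that the checkpoint holds back, was read in 3 libraries only. Cdc20 came to 0 CPM in the P1 controls and 0, 23.1, 0 and 0 CPM in the P1 Casp2-depleted libraries, at 0, 0, 2.61 and 0 CPM and 0, 20.5, 0 and 0 CPM in the same genotypes at P7, and at 0 CPM and 0 CPM at P14. Each of the 3 stood alone in its group. Sgo2a, a shugoshin that shields centromeric cohesin, was at 20.95 to 26.1 CPM in the 4 P7 Casp2-depleted libraries, all above the P7 controls at 0 to 10.4 CPM (2.31 ± 2.48, edgeR adjusted p = 1), and at 0 in all P14 libraries. Espl1, the separase that cuts cohesin, was at 17.1 to 29.2 CPM in the P7 Casp2-depleted libraries and 33.9 to 38.7 CPM in those of P14, with an adjusted p of 0.897. Pttg1 (securin) and Sgo1 were not called.

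The 5 cytokinesis genes had median fitted log2 changes of -0.95 and -0.23 from P7 to P14 in controls and Casp2-depleted CMs, where the condensin group had -3.54 and -3.66. In controls the other groups had -5.56 (cyclins and Cdk1), -5.49 (mitotic kinases), -4.17 (passenger complex), -2.58 (anaphase), -1.06 (kinetochore) and -0.89 (checkpoint). In Casp2-depleted CMs the same groups had -0.82, -1.37, -4.08, -3.99, -1.96 and 0.01. Low medians were thus not particular to condensation. Differences between the groups of genes were not tested. Anln stood at 7.802, 84.3 and 65.7 CPM in the P1 controls and 22.1, 124, 194 and 52.3 CPM in the P1 Casp2-depleted libraries, at 79.2, 74.7, 37.8 and 69.5 CPM and 113, 95.6, 86.4 and 133 CPM in the same genotypes at P7, and at 45.8, 121 and 92.3 CPM and 124, 30.2 and 91.5 CPM at P14. Anillin, the scaffold of the contractile ring, was higher in all 4 Casp2-depleted libraries of P7 than in all 4 controls (0.71 ± 0.83, edgeR adjusted p = 1). Prc1 was at 50.4, 68.1 and 57.02 CPM in the P1 controls and 66.7, 40.6, 2.03 and 53.8 CPM in the P1 Casp2-depleted libraries, at 35.4, 61.8, 96.6 and 82.97 CPM and 87.5, 113, 106 and 113 CPM in the same genotypes at P7, and at 37.3, 19.4 and 50.7 CPM and 83.6, 57.8 and 52.9 CPM at P14. Prc1, which bundles midzone microtubules, was higher in the 3 P14 Casp2-depleted libraries than in the 3 controls (0.85 ± 1.12, adjusted p = 0.9296), and Rccd1 covers it on the other strand. Cit lay at 121, 152 and 105 CPM in the P1 controls and 105, 90.2, 136 and 36.9 CPM in the P1 Casp2-depleted libraries, at 92.2, 79.7, 59.4 and 84.5 CPM and 71.7, 82.2, 101 and 72.9 CPM in the same genotypes at P7, and at 52.8, 134 and 0 CPM and 101, 106 and 45.7 CPM at P14. Citron kinase, which stabilises the midbody, was lower in all P7 controls than in all P1 controls, without a call, and overlapped between genotypes at each day. Ect2 reached 0.6001, 12.6 and 13.5 CPM in the P1 controls and 48.6, 23.8, 18.2 and 32.4 CPM in the P1 Casp2-depleted libraries, at 0, 22.98, 27.4 and 20.9 CPM and 58.2, 3.16, 61.7 and 25.9 CPM in the same genotypes at P7, and at 0, 25.4 and 0 CPM and 65.4, 20.1 and 9.799 CPM at P14. Ect2, the exchange factor that activates RhoA at the cell equator, was above the P1 controls in each P1 Casp2-depleted library (1.78 ± 1.89, adjusted p = 1), and it overlapped at P7 and P14. Racgap1, the centralspindlin subunit that binds Ect2, was at 14.1 to 77.9 CPM in the P14 Casp2-depleted libraries and 0 to 11.3 CPM in the P14 controls (3.73 ± 2.11, adjusted p = 0.413).

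At P7, the day on which these genes were read most widely, none of the 44 tested was called between genotypes. Most had higher fitted levels in Casp2-depleted CMs. The biological coefficient of variation of the edgeR fit, the spread between pools beyond counting error relative to the mean, was 1.5005. With this spread and 4 libraries per genotype at P7, a missing call is not evidence of equal levels. Of the 44, 33 (75.0%) had a higher fitted level in Casp2-depleted CMs, where 48.1% of all genes did, and the median log2 difference was 0.52 against -0.03. The genes were chosen with earlier results of these data known, so this is a description. None of the 44 was called by edgeR, DESeq2 or limma-voom, edgeR called none of the 20368 genes tested (0%), and Spc24 alone had an unadjusted p below 0.05 in edgeR, where 4.22% of all genes did. The paper, with limma, reports genes that differed between genotypes at P7 and names Mad2l1 among them, as well as Foxm1 and Kif18a of the lists followed below. Why the fits differ was not tested. The paper's gene set enrichment, at an unadjusted p below 0.05, also found sets for chromosome separation, the spindle checkpoint, sister chromatid resolution and the PLK1 pathway higher in Casp2-depleted CMs. No set test was run here, so the calls of single genes do not address that result. Sgo2a and Anln were the 2 genes without overlap, where 0.697% of all genes were higher in that way. In mean CPM the 47 genes summed to 2381 in Casp2-depleted CMs and 1884 in controls at P7. Incenp gave 32.98% of the difference of 497 CPM, Ncapd2 10.3%, Anln 8.41% and Prc1 7.16%, while Smc4 went the other way with -58.4 CPM. After Spc24 the smallest p were those of Incenp, with a mean of 424 ± 175 against 261 ± 165 CPM (SD, n = 4 each, log2 difference 0.70 ± 0.62), and of Cdc20 (2.83 ± 2.76), both at an edgeR adjusted p of 1.

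At P14, 5 of the 44 had an unadjusted p below 0.05 between genotypes, 4 of them higher in Casp2-depleted CMs, where 12.8% of all genes did. None was called by edgeR, where 0.167% of all genes were, DESeq2 called Ttk and Tpx2, and limma-voom called Ttk. Racgap1, Ttk and Prc1 were higher without overlap, where 3.01% of all genes were. Ncapd2 went the other way, with 42 reads in controls and 1 in Casp2-depleted CMs, a ratio of 46.8 (95% counting interval 7.95 to 1892). The edgeR adjusted p was 0.365. At P1, 3 of the 44 had an unadjusted p below 0.05 (Cenpa and Aurka higher, Mad2l1 lower), where 7.34% of all genes did, and none was called by any of the 3 tools (0% of all genes in edgeR). Ect2 was higher and Knl1 lower without overlap, where 1.13% and 2.27% of all genes were. Averaged over days, 4 had an unadjusted p below 0.05 (Cdk1, Aurka, Ttk and Incenp, all higher), where 8.4% of all genes did, and none was called by any of the 3 tools (0.0147% of all genes in edgeR).

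From P1 to P7 no gene of the 44 was called in either genotype by edgeR, DESeq2 or limma-voom, where 0.00982% of all genes were in controls and 0.0196% in Casp2-depleted CMs. The unadjusted p was below 0.05 for 3 in controls (Cenpa, Ncapd3 and Cdk1) and for 5 in Casp2-depleted CMs, all higher at P7, against 6.67% and 7.4% of all genes. The median change was 0.73 and 1.27 on the log2 scale, against 0.21 and 0.07 over all genes, and 0.52 in controls with genes at 0 set to their bound. In controls Ncapd3 was higher and Tpx2 and Cit were lower without overlap, where 6.89% and 2.86% of all genes were. In Casp2-depleted CMs Incenp, at 305 to 682 CPM at P7 and 52.7 to 186 CPM at P1, led with 1.89 ± 0.63 (edgeR adjusted p = 0.672), and 6 genes were higher without overlap, where 1.48% of all genes were. Whether the change between days differed by genotype was tested as an interaction. No gene of the 44 was called for P7 over P1 (3 with an unadjusted p below 0.05, 6.83% of all genes, with 0% called) or for P14 over P7 (5, against 9.76%, with 0.0245% called), and DESeq2 called Ttk in the latter. The comparisons of P14 with P7 and with P1 share the P14 libraries, and those of genotype and day share libraries as well.

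Other genes of the same machinery were followed as 7 lists of 120 genes, of which 112 were tested. From P7 to P14 in controls edgeR called 3, all lower, against 1.88% of all genes: Anapc5 (a subunit of the anaphase-promoting complex), Rock1 (the kinase that activates myosin at the furrow) and Septin6. Anapc5 fell from 299.9 ± 39.4 to 10.4 ± 9.33 CPM (SD, n = 4 and 3, edgeR adjusted p = 8.19e-06). In Casp2-depleted CMs 8 were called, all lower, against 2.83% of all genes: Anapc5, Rock1, Septin7, Tpr, Pmf1, Hjurp (the chaperone that loads Cenpa), Kif20b and Spag5. Kif20b, a kinesin of the abscission site, went from 112 ± 39.6 CPM to 0 in all 3 P14 libraries (adjusted p = 0.000303). From P1 to P14 Anapc5 was called in controls, where 0.319% of all genes were, and Anapc5, Hjurp, Kif20b and Spag5 in Casp2-depleted CMs, where 1.94% were. Between genotypes and from P1 to P7 none of the 112 was called by edgeR, and the smallest adjusted p between genotypes at P14 was that of Spag5 (0.0565). At P7 2 of the 112, and 4.22% of all genes, had an unadjusted p below 0.05 between genotypes (Mybl2 and Cenps, edgeR adjusted p = 1 for both), and the smallest p of the other lists were those of Usp44, Anapc1, Bora, Ncapg2 and Septin11.

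**Figure D5:**
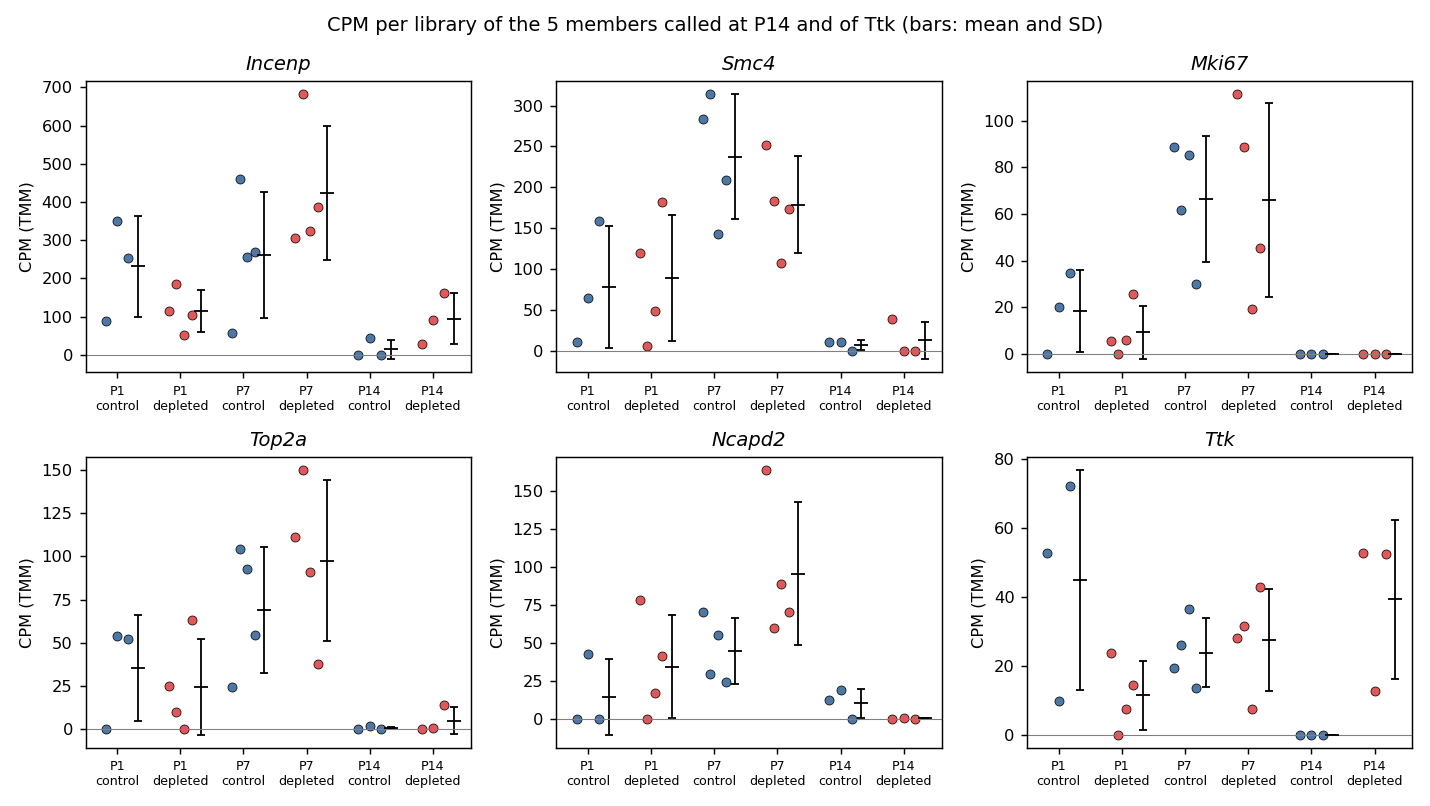
CPM (TMM) of Incenp, Smc4, Mki67, Top2a, Ncapd2 and Ttk in each library by group (blue, control; red, Casp2-depleted); points are libraries, bars the mean and SD. Mki67 is at 0 in all 6 P14 libraries, Ttk at 0 in the 3 P14 controls and at 12.6 to 52.7 CPM in the 3 P14 Casp2-depleted libraries.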

How the data were processed

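Bulk RNA was sequenced from PCM1-sorted CM nuclei with a 3′ tag kit. The authors trimmed reads with cutadapt 4.0, checked them with FastQC 0.11.8, aligned them with STAR 2.6.1e to GRCm39 and deposited raw read counts per Ensembl gene from HTSeq 2.0.3, taken over the full gene. Strand setting and molecular identifiers are not given in the sources used here, so intervals cover counting error only. Deposited counts sum to 891817 to 2924097 reads on genes in the 21 libraries kept. Of the reads on genes, on no gene or ambiguous, 34.3 to 76.1% lay on no gene and stayed out of all totals. Groups came from the labels. GENCODE vM39 named 56236 of the 56923 identifiers.

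Genes with a sum of 10 reads or more that were read in 3 libraries or more were tested with edgeR 4.0.16 (quasi-likelihood, TMM, robust option, R 4.3.3) over all 6 groups, with Benjamini-Hochberg adjustment over all 20368 genes. For 93.7% of them the fit took the spread from a trend shared across genes and not from the gene's own libraries. A gene was called at an adjusted p below 0.05 where the log2 change also exceeded 1 in size. Errors of fold changes are SEs. The study itself used limma. Where a group had no read, a fold is a lower bound from 3 reads over the group. This bound covers counting error and not the spread between pools. Summed shares have 95% Wilson intervals in the tables. Scripts were tested on simulated data. Alternatives were DESeq2 1.42.0, limma-voom 3.58.1, RLE factors, other filters, thinning to the smallest total, all 24 libraries, the replicate block, each library left out and, added after seeing the data, the fraction of reads outside genes as a covariate and the fit without the robust option.

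The 47 genes and the lists were chosen with earlier results of these data known. Values per library are given for genes called in any comparison, the 3 with the smallest p in each of 10 comparisons, the 10 highest in mean CPM, and Mad2l1, Plk1 and Ect2. Sgo2a, Espl1, Racgap1, Knl1's P1 order, Cdca8, Tpx2 and Spag5 were singled out after their values were seen. Replicates with the same number at the same day deviated together by correlations of -0.059 to 0.185, so the number was not used as a pairing. The labels call it a replicate and the names of the deposited files call it a batch, and the fit with it as a block is given beside the 2 calls it changed.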

Additional observations from a re-analysis of the deposited data

Results flagged for a closer look

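Cenpp stood at 97.9 CPM in P7 control replicate 3, against 137 to 141 CPM in the other 3 P7 controls, a gap that takes most of the group's range. Over the 20 quantities and 60 groups of 4 looked at, this was the only library so far from the rest, and chance marks about 1 group in 20.

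The 3 libraries that the study left out entered comparisons only in the alternative fit with all 24 libraries. A read was found for 41 of the 47 genes in P1 control replicate 1, for 7 in P14 Casp2-depleted replicate 1 and for 2 in P14 control replicate 3. Over all genes these libraries had reads on 11707, 4285 and 2049. In the last of these Incenp held 665 of 672 reads on the 47 genes and Ect2 held 7. In P14 Casp2-depleted replicate 1 Incenp held 798 reads, Cdc27 437, Smc4 251, Cit 242 and Cenpp 203, and Ncapd3 and Bub1b 1 each. In P1 control replicate 1 Cenpa held 179 reads, Spc24 171, Sgo2a 154, Cdc20 90, Plk1 65 and Cdk1 29, while Aurka and Mad2l1 had 0.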

How the results depend on the processing

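No result changed sign as a called value under the alternatives run. Of 719 alternatives for counts, medians, detection and shares, 654 stayed within 1.5 times the count or 1 SD, and 65 moved. For the median log2 changes this SD was 1.39, larger than most of the medians themselves. A median that stayed within it may still have changed sign. The cause of each was not tested. Of the genes called from P7 to P14 in controls (4), edgeR's stricter filter left 2, all 24 libraries 0, the fraction of reads outside genes 0, and limma-voom gave 7. From P1 to P14 in controls (1) the counts were 0 with the stricter filter, all 24 libraries and the fraction of reads outside genes, 2 with limma-voom and with the replicate block, and 5 with DESeq2. In Casp2-depleted CMs the P7 to P14 count (3) became 6 with limma-voom and 0 with the fraction of reads outside genes. The P1 to P14 count (1) became 0 with the stricter filter, no filter, all 24 libraries, RLE factors, limma-voom, thinning, the replicate block and the fraction of reads outside genes, and 3 with DESeq2. DESeq2 called 2 genes for genotype at P14 and 1 in the interaction of genotype with P14 over P7, where edgeR called 0, and limma-voom called 1 for genotype at P14. Genes called by another tool and not by edgeR were, from P7 to P14, Ttk and Tpx2 (both tools) and Racgap1 (limma-voom) in controls, and Cdca8 (both tools), Sgo2a and Top2a (limma-voom) in Casp2-depleted CMs. From P1 to P14 they were Ttk and Tpx2 (both tools), Mki67 and Top2a (DESeq2) in controls, and Cdca8 and Mki67 (DESeq2) in Casp2-depleted CMs. With the replicate block Smc4 gained a call from P1 to P14 in controls and Ncapd2 lost its own in Casp2-depleted CMs, and no other call changed.

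Leaving out each library in turn gave 2 to 4 and 0 to 2 calls for P14 over P7 and over P1 in controls, 0 to 4 and 0 to 2 in Casp2-depleted CMs, 0 to 3 for genotype at P14, 0 to 1 averaged over days and 0 to 1 for the interaction of P14 over P7. Medians ranged from -4.30 to -1.57 for P14 over P7 in controls, the lowest without P14 control replicate 2. In controls Mki67 lost its call without P14 replicate 1, 2 or 4, P7 replicate 1 or 2, or P7 Casp2-depleted replicate 1 (adjusted p 0.0581 to 0.101), and Top2a without P14 replicate 1 or 4, P7 replicate 2 or 3, or P7 Casp2-depleted replicate 1 or 2 (0.0555 to 0.114). In Casp2-depleted CMs Mki67 lost it without P7 replicate 1 or any P14 library (0.0508 to 0.117), Ncapd2 without P7 replicate 1 or P14 replicate 4 (0.0717 to 0.105), and Smc4 without P14 replicate 3 or 4 (0.122 to 0.130). Incenp's fall from P1 in controls was lost without P1 Casp2-depleted replicate 4 (0.123).

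With at least 5 reads as detection, the P7 controls had a median of 32.5 genes in place of 37. Without the 10 most-read genes in the total, the median shares were 0.186% in the P1 controls, 0.175% in the P7 controls and 0.238% in the P7 Casp2-depleted libraries. Without the most-read of the 47 genes they were 0.124, 0.121 and 0.157%, and 0.138% in the P14 Casp2-depleted libraries. Without length correction 5 of the 10 highest genes per kb stayed among the 10 highest. Of values beside a replicate with 20 reads or more, 19.6% were 0, and the cause was not tested.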
